A study of Mus musculus with 6 samples.

Results

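NRF2 target genes and the enzymes that make and use glutathione were followed in mouse cardiac fibroblasts in which the Rap GTPase-activating protein gene Sipa1 had been knocked down. The set holds the rows of the deposited table whose symbols name a glutathione transferase of the alpha, mu, pi, theta, omega, zeta or kappa class. It also holds the microsomal transferase genes (Mgst1 to Mgst3), the glutathione peroxidase genes and 19 named genes. Those 19 belong to NRF2 control, glutathione synthesis, thioredoxin chemistry and NADPH supply. It came to 47 of the 17525 genes in the table, and all 47 passed the filter on low counts that left 15954 genes for testing. A glutathione gene without a row in that table was not analysed here. The fibroblasts came from the hearts of C57BL/6 mice aged 6 weeks and were used unpassaged. With polybrene as a helper, lentivirus brought a scramble sequence into 3 samples, titled as controls, and a hairpin against Sipa1 with an EGFP reporter into 3 others. All 6 received 1 µg/ml of lipopolysaccharide (LPS), a bacterial cell-wall component, after 72 h and were collected 24 h later, so every level below belongs to the stimulated state. The control samples carry the genotype label WT. Since no label says that replicates came from separate animals or cultures, the replicate spread behind every p-value may be technical. The share of cells that took up virus was not analysed here.

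NRF2, encoded by Nfe2l2, is a transcription factor of the defence against oxidants and electrophiles. In resting cells Keap1 holds NRF2 and presents it for destruction by a Cul3 ubiquitin ligase, and oxidants or electrophiles that modify Keap1 let NRF2 accumulate. NRF2 pairs with a small Maf protein, binds antioxidant response elements and switches on genes for glutathione synthesis, quinone reduction, thioredoxin recycling and NADPH supply. Glutathione transferases join glutathione to reactive compounds, and glutathione peroxidases use it to remove peroxides.

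The antioxidant response element is shown first because its core can be read in the promoters of several of these genes. The letters TGACNNNGC were searched on both strands of RefSeq promoter windows (GRCm38.p6), each running from 250 bases before to 50 bases after a gene's start. Windows were held for 43 of the 47 genes. Gclc, Gsr, Gsta4 and Gstt2 had none. The core was present in 12 of these 43 genes (27.9%), against 16.8% of the 11712 tested genes with a window and 12.4% of all 32851 windows. It was present in 5 of 13 genes that rose after knockdown, in 2 of 14 that fell and in 5 of 16 that did not pass the threshold. These shares are a description and were not tested. In the 4 windows below, each 5′ to 3′ along the gene, the capitals mark the match. The first 3 belong to genes that rose, and the last to a gene that fell.
Nfe2l2: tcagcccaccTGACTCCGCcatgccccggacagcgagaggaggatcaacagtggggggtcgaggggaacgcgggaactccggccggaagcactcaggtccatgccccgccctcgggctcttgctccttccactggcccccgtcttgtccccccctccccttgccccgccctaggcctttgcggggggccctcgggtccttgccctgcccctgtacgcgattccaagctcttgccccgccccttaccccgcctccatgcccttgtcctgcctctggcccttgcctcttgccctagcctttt
Gclm: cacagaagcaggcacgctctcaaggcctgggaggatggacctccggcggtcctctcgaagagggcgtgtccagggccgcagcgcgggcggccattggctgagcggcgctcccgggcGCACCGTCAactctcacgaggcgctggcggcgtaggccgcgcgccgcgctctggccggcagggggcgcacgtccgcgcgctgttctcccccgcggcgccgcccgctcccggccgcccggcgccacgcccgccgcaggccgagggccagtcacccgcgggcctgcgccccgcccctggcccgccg
Txnrd1: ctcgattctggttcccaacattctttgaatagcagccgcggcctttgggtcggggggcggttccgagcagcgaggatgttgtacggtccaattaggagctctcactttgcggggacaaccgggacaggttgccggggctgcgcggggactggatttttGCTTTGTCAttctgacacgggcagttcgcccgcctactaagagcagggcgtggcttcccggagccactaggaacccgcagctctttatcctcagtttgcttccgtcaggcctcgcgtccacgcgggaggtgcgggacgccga
Prdx1: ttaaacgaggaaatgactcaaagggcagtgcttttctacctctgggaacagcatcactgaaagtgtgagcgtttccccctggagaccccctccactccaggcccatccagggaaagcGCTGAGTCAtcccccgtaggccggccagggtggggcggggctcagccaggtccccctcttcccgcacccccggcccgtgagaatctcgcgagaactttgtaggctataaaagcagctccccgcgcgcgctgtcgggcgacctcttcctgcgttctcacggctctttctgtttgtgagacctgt

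The Nfe2l2 window (chr2:75704614-75704913, minus strand) has the core as TGACTCCGC, and the match starts 240 bases before the start of transcription. In the Gclm window (chr3:122245307-122245606, plus strand) it lies on the opposite strand as TGACGGTGC, so its complement is what the capitals show. The Txnrd1 window (chr10:82858956-82859255, plus strand), 1 of 3 for that gene, has TGACAAAGC on the opposite strand. Prdx1 (chr4:116685349-116685648, plus strand) has TGACTCAGC on the opposite strand, which also contains TGACTCA, the letters bound by AP-1. The other genes that rose with a match were Srxn1 (TGACCTAGC) and G6pdx (TGACTGAGC), and the other that fell was Mgst1 (TGACCGTGC). Among genes that rose, Nqo1, Keap1, Osgin1, Taldo1, Gsta1, Gsta2, Gsto2 and Gstz1 had no match in these windows. Sequence outside the windows and forms of the core other than TGACNNNGC were not searched. The Osgin1 window begins at base 119436897 of chromosome 8, inside the gene, which runs from base 119425882.

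Depth ranged from 30930998 to 41839742 reads in genes per library, and the 47 genes took 0.523% to 0.546% of the reads of each. Sipa1 itself was lower in every knockdown library (42.04 ± 1.46 against 17.6 ± 2.41 CPM, SD, n = 3 each; log2 fold change -1.25, SE 0.075, edgeR adjusted p = 2.64e-11). CPM are read counts scaled to library size with TMM factors. An exact two-sided permutation test gave p = 0.1 for Sipa1, the smallest that 3 against 3 samples allow. The fibroblast markers Col1a1 and Dcn stood at 1222 and 1286 FPKM in the scramble group, where FPKM is the authors' measure per transcript length, and 3 of 8 such markers fell, Tcf21 by the most (-0.84). Among markers of other cells, 4 of 6 mesothelial genes rose, and their summed level was 28.8 to 29.8 FPKM in scramble libraries and 57.9 to 63.4 FPKM in knockdown libraries. The cardiomyocyte sum (14.7 to 15.7 against 18.3 to 23.6 FPKM) was nearly all Tnnt2, which rose, with Myh6 near 0 and no row for Actn2 or Nppa. Of 6 smooth muscle and pericyte markers 2 fell (7.74 to 8.11 against 5.33 to 5.43 FPKM, with no row for Kcnj8). Most of the macrophage sum was Lyz2 (means of 70.0 and 71.2 FPKM), which did not pass. That sum (84.6 to 93.6 against 91.7 to 95.2 FPKM) and the endothelial sum (45.8 to 52.3 against 49.0 to 52.2 FPKM) overlapped between groups, as did the Schwann cell sum (1.67 to 2.23 against 2.16 to 2.36 FPKM). Within them 1 of 6 macrophage markers rose, Csf1r (log2 fold change 0.80), and of 6 endothelial markers Kdr (0.56) and Emcn (0.24) rose and Tek fell (-0.44). In such bulk RNA, fewer cells of a type and less RNA per cell cannot be told apart.

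After knockdown, Nfe2l2, Keap1 and the NRF2 targets Nqo1, Gclm, Txnrd1, Srxn1 and Osgin1 rose by 0.26 to 0.45 on the log2 scale. The NADPH supply genes G6pdx (0.19) and Taldo1 (0.17) rose by less. Of other genes counted here as NRF2 targets, Gclc, Slc7a11, Prdx1 and Gstm1 fell and Me1, Gsr, Pgd and Tkt did not pass. Each of those rises, and the fall of Gstm1, passed in all 14 alternative settings described below. The falls of Gclc and Prdx1 passed in 12 and that of Slc7a11 in 6. Among the other genes, which were not sorted by NRF2 control, the selenium-dependent glutathione peroxidase genes Gpx1, Gpx3 and Gpx4 and several transferase genes fell. The largest rises were in the alpha-class transferases Gsta1, Gsta2 and Gsta4 and the largest fall was in the theta-class transferase Gstt3. Of the 47 genes, 14 rose and 15 fell at an edgeR adjusted p under 0.05, or 61.7%, against 32.2% of all 15954 genes tested (16.4% rising and 15.8% falling). Over all genes, those with a mean of at least 10 CPM were called more often (43.3%). In the set, 20 of the 33 members at that level were called (60.6%), and 64.3% of the 14 members below it. This level was chosen after the values were seen. In 29 of the 47 genes the groups did not overlap, with 16 above and 13 below, against 43.6% of all genes (22.4% above and 21.2% below). The median log2 fold change was -0.06 over the set and -0.00129 over all genes. The median size of a difference was 0.22 in the set and 0.16 over all genes. A called difference of at least 1.5-fold was found in 5 of the 47 genes, against 6.02% of all genes. The authors' deposited table called 26 of the 29 at an adjusted p under 0.05, in the same direction, and did not call Gstm6, Gstt1 or Cat.

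**Figure D1:**
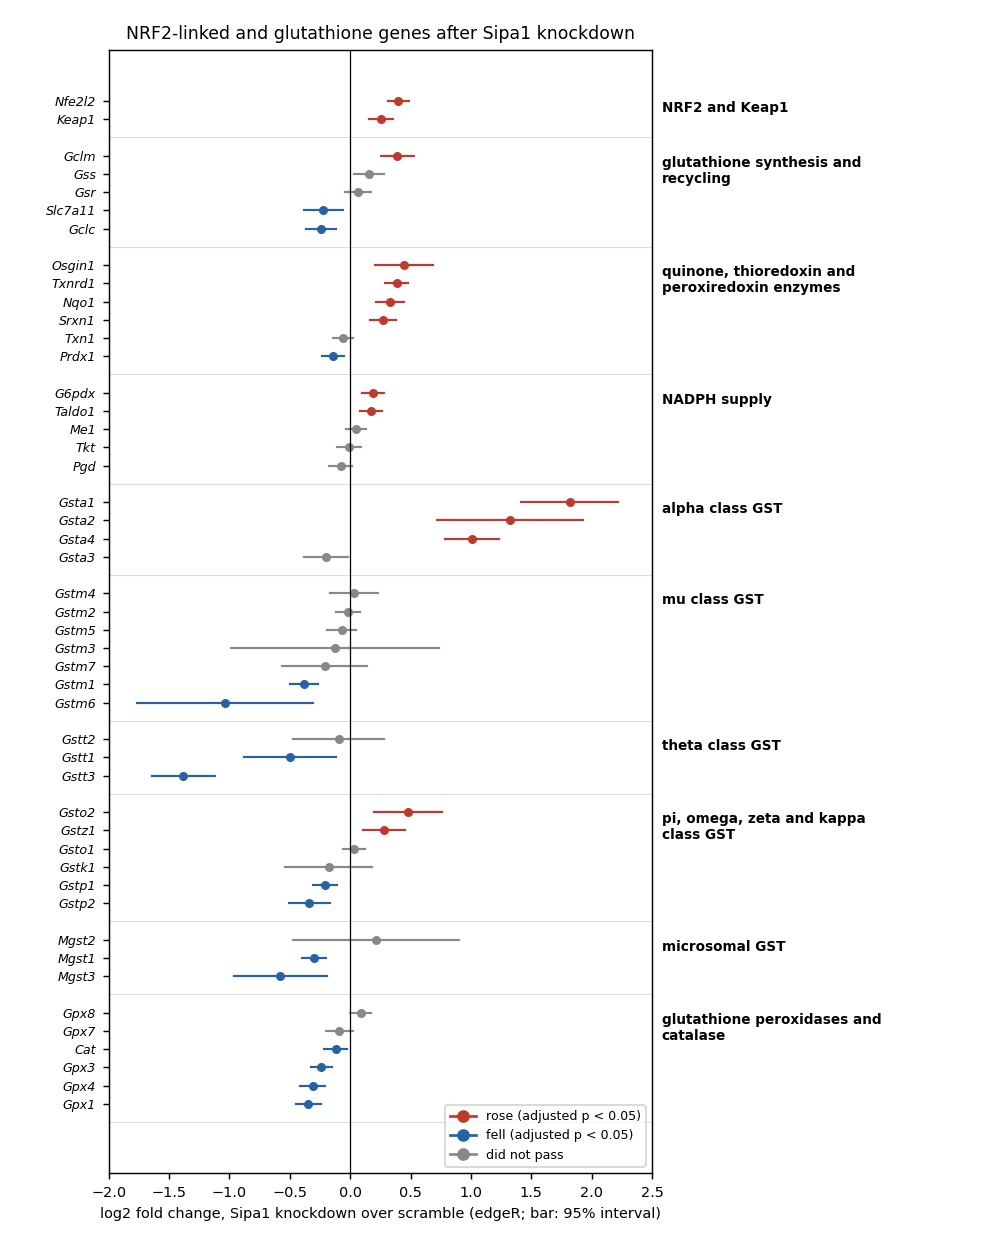
Log2 fold change of each of the 47 genes, Sipa1 knockdown over scramble, with its 95% interval from edgeR, grouped by role; red rose, blue fell and grey did not pass an adjusted p of 0.05. Gsta1 (1.82), Gsta2 and Gsta4 lie farthest right, and Gstt3 lies farthest left at -1.38.

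Both the factor and its inhibitor were higher in the knockdown. Nfe2l2 (chromosome 2, 75675513 to 75704663, GRCm38) stood at 257, 246 and 259 CPM in scramble replicates 1, 2 and 3 and at 329, 341 and 333 CPM in knockdown replicates 1, 2 and 3. The groups did not overlap and were far apart compared with their spread (log2 fold change 0.40, SE 0.041, edgeR adjusted p = 9.43e-08). Keap1 had 51.9, 51.2 and 53.1 CPM in the scramble libraries and 64.03, 63.1 and 59.4 CPM in the knockdown libraries, again without overlap (0.26, SE 0.049, edgeR adjusted p = 2.84e-04). Per transcript length, Nfe2l2 was far more abundant than Keap1, at 89.6 ± 0.53 against 12.6 ± 0.084 FPKM in scramble cells. These are transcript levels, and NRF2 protein is not part of these data.

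The partners and competitors of NRF2 in a list of 14 further regulators moved both ways: of the 13 with a row, 3 rose and 4 fell. That is 53.8% called, against 32.2% of all genes and 43.3% of those with at least 10 CPM, a level most of the list reached. Bach1, a repressor that competes with NRF2 for the same elements, fell from 48.9 ± 1.76 to 39.2 ± 1.91 CPM (log2 fold change -0.32, edgeR adjusted p = 8.19e-05). The small Maf genes split, with Maff (0.23) and Mafk (0.20) rising and Mafg (-0.35) falling. Sqstm1, whose protein p62 draws Keap1 into autophagy, fell by 0.31 on the log2 scale. Nfe2l1, a factor related to NRF2 that controls proteasome genes, had the largest fall of this list (-0.70), and Cul3 rose by 0.12.

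In glutathione synthesis, the modifier subunit gene Gclm rose while the catalytic subunit gene Gclc and the cystine transporter gene Slc7a11 fell slightly. Glutamate-cysteine ligase is built from both subunits and carries out the first and limiting step. Gclm had 53.4, 49.6 and 50.9 CPM in scramble and 62.8, 62.6 and 76.6 CPM in knockdown replicates 1, 2 and 3. Every knockdown library was above every scramble library, knockdown replicate 3 by the most (log2 fold change 0.39, SE 0.066, edgeR adjusted p = 1.21e-04). Gclc went the other way, from 67.7, 73.3 and 61.04 CPM to 54.6, 55.3 and 60.8 CPM. The closest pair of libraries, scramble 3 and knockdown 3, nearly met (log2 fold change -0.24, SE 0.060, edgeR adjusted p = 0.00354). On FPKM values Gclc missed the threshold, with a limma adjusted p of 0.0515 to 0.0592.

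Slc7a11 brings in cystine, the source of the cysteine in glutathione. It had 68.5, 77.00 and 62.3 CPM in scramble libraries and 57.4, 55.3 and 65.1 CPM in knockdown libraries. The groups overlapped, since knockdown replicate 3 was above scramble replicate 3 (log2 fold change -0.22, SE 0.075, edgeR adjusted p = 0.0335). This call was lost in 8 of 14 alternatives, among them without scramble replicate 1 (0.0765) or 2 (0.0926; log2 fold change -0.15), without knockdown replicate 1 (0.181) or 2 (0.126), and with library-size scaling (0.0929) and with the replicate number as a block (0.191). Over all alternatives its adjusted p ran from 0.00239 to 0.191.

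Gss, which adds glycine in the last step, and Gsr, which returns oxidised glutathione to its reduced form, did not pass the threshold. Gss stood at 31.7, 30.2 and 35.1 CPM in scramble and 36.2, 34.9 and 37.2 CPM in knockdown libraries (log2 fold change 0.16, 95% interval 0.029 to 0.28, edgeR adjusted p = 0.0549). Scramble replicate 3 overlapped the knockdown range, and without it Gss passed (0.0166), as it did with the replicate block (0.0288), within a range of 0.0166 to 0.224. Gsr had 42.06, 42.95 and 41.5 CPM against 42.8, 44.6 and 44.7 CPM. Its log2 fold change was 0.06, with a 95% interval of -0.043 to 0.17.

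**Figure D2:**
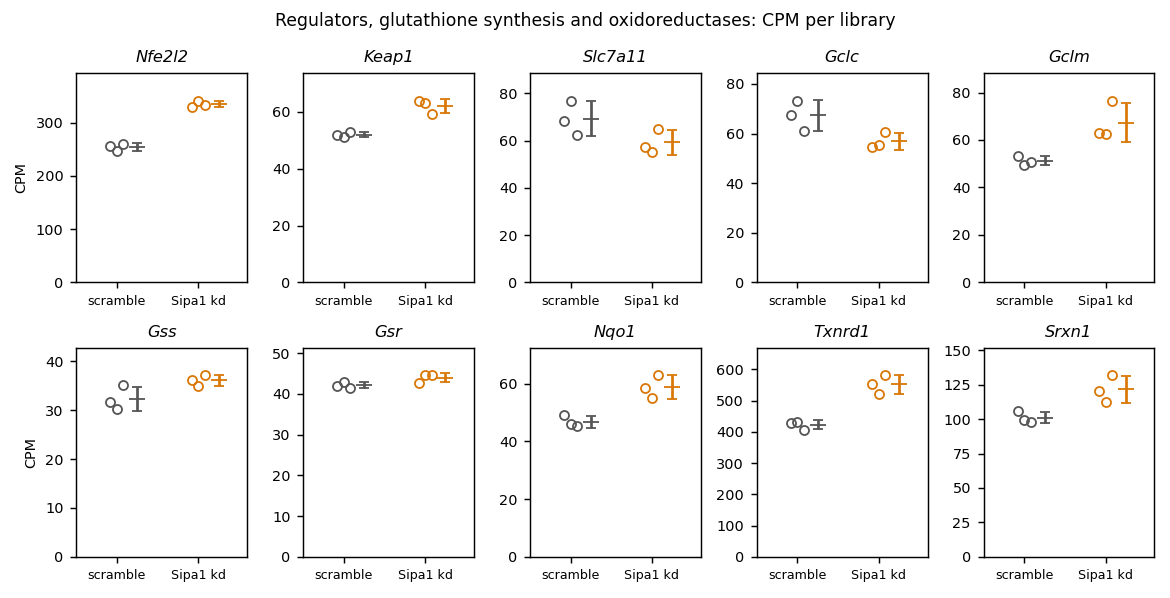
CPM of 10 genes in each library (open circles; 3 scramble in grey, 3 knockdown in orange), with mean and SD beside them; the axes start at 0. Nfe2l2, Keap1, Gclm, Nqo1, Txnrd1 and Srxn1 are higher in every knockdown library, Gclc is lower in every one, and Slc7a11, Gss and Gsr overlap between groups.

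Among the oxidoreductases, 4 of 6 rose and 1 fell. That is 83.3% called, against 32.2% of all genes and 43.3% of those with a mean of at least 10 CPM. Nqo1, a quinone reductase used widely as an NRF2 reporter gene, had 49.2, 46.2 and 45.2 CPM in scramble and 58.4, 54.95 and 63.1 CPM in knockdown replicates 1, 2 and 3. Every knockdown value lay above the scramble range (log2 fold change 0.33, SE 0.056, edgeR adjusted p = 8.02e-05). Txnrd1, the selenoprotein that keeps cytosolic thioredoxin reduced, had 429, 433 and 407 CPM in scramble and 552, 521 and 583 CPM in knockdown libraries. Its increase to 131% of the scramble level was well outside the spread (log2 fold change 0.39, SE 0.047, edgeR adjusted p = 9.19e-07). Srxn1, which repairs over-oxidised peroxiredoxins, had 106, 99.5 and 97.9 CPM against 121, 113 and 132 CPM (0.27, SE 0.052, edgeR adjusted p = 3.27e-04), without overlap. Osgin1, an oxidative stress-induced growth inhibitor, rose from a low level, 5.66 ± 0.29 to 7.72 ± 0.98 CPM (0.45, SE 0.12, edgeR adjusted p = 0.00499).

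Txn1 and Prdx1 were not among the rising genes. Txn1, the cytosolic thioredoxin that Txnrd1 reduces, stood at 213 ± 2.70 and 204 ± 5.62 CPM (log2 fold change -0.06, 95% interval -0.15 to 0.025, edgeR adjusted p = 0.288). Prdx1, a thioredoxin-dependent peroxidase and the most abundant member in FPKM (473 ± 17.3 in scramble), was slightly lower in every knockdown library, at 764 ± 13.9 and 693 ± 24.4 CPM (log2 fold change -0.14, edgeR adjusted p = 0.0165). That small fall was not called without scramble replicate 1 (0.0567) or knockdown replicate 1 (0.0836), within a range of 0.00225 to 0.0836.

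NADPH, the electron source for Gsr, Txnrd1 and Nqo1, is made in part by the pentose phosphate pathway. G6pdx, its entry enzyme, rose from 145 ± 7.13 to 165 ± 3.31 CPM (log2 fold change 0.19, SE 0.044, edgeR adjusted p = 0.00213), and Taldo1 of the non-oxidative branch from 199 ± 3.84 to 224 ± 8.82 CPM (0.17, SE 0.043, edgeR adjusted p = 0.00311). The groups did not overlap for either gene. Pgd (log2 fold change -0.08, 95% interval -0.17 to 0.013), Tkt (-0.01, -0.11 to 0.087) and the malic enzyme gene Me1 (0.05, -0.038 to 0.13) did not pass. In a list of 18 other NADPH and pentose phosphate genes 3 rose and 4 fell, a called share of 38.9%. That share was 32.2% over all genes and 43.3% over genes with a mean of at least 10 CPM, a level most of the list reached. Aldh1l2, a mitochondrial folate enzyme (-0.81), and the cytosolic isocitrate dehydrogenase gene Idh1 (-0.52) had the smallest adjusted p among the falls, and the folate enzyme genes Mthfd1 (0.19) and Aldh1l1 (0.43) among the rises.

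**Figure D3:**
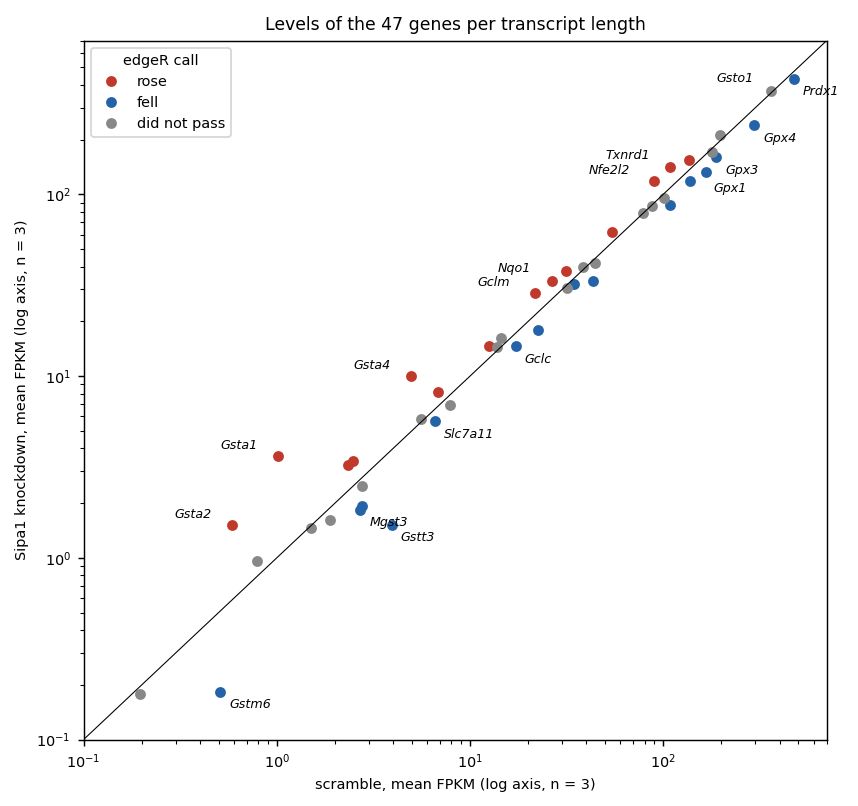
Mean FPKM of each of the 47 genes in scramble (x) and Sipa1 knockdown (y) samples, on log axes, n = 3 each; the line marks equal levels and the colours the edgeR call. Genes above 10 FPKM lie close to the line, and Gsta1, Gsta2, Gsta4, Gstt3 and Gstm6, with the largest fold changes, have scramble levels below 5 FPKM.

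The glutathione transferase genes moved both ways. Of the 20 cytosolic and kappa-class genes in the set 5 rose and 6 fell (55.0% called, against 32.2% of all genes). The alpha class held 3 of the rises, and the mu, theta and pi classes held 2 of the falls each. Gsta1 was counted at 41, 36 and 36 reads in scramble and 116, 142 and 154 reads in knockdown libraries, or 1.01 ± 0.13 and 3.55 ± 0.51 CPM. The knockdown mean was 352% of the scramble mean (log2 fold change 1.82, SE 0.19, edgeR adjusted p = 1.35e-07). Gsta2 had 16, 18 and 38 reads against 53, 55 and 76 reads (1.32, SE 0.29, edgeR adjusted p = 0.00111). Neither gene's groups overlapped in CPM. Both genes rose from a level near 1 FPKM or below, and on log2(FPKM + 1) their fold changes were 1.19 and 0.66.

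Gsta4 encodes the transferase that clears the lipid aldehyde hydroxynonenal. It had 5.51, 5.95 and 4.86 CPM in scramble and 10.9, 10.1 and 11.7 CPM in knockdown libraries. No library of either group came near the other group (log2 fold change 1.01, SE 0.11, edgeR adjusted p = 1.31e-07). Gsta3 did not share this rise: it stood at 12.8 ± 0.66 and 11.2 ± 0.98 CPM (-0.20, 95% interval -0.38 to -0.018, edgeR adjusted p = 0.0873).

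Gsta4, Gsta1 and Gsta2 lie together on chromosome 9 (78191966 to 78209349, 78230669 to 78242683 and 78331018 to 78347192, GRCm38), while Gsta3 lies on chromosome 1. Between them in the same cluster lie the related genes Gm3776 and Gm10639, looked up after the values were seen. Gm3776 went from 0.87 ± 0.079 to 3.28 ± 0.38 CPM (log2 fold change 1.91, edgeR adjusted p = 8.80e-08), and Gm10639 from 0.20 ± 0.042 to 0.38 ± 0.077 CPM (0.90, edgeR adjusted p = 0.111). The copies share sequence: 81.8% of all 100-base stretches, the read length, in Gsta1 transcripts also occur in another gene, 71.3% in Gm3776, so reads cannot be assigned with certainty to either. For Gsta2 the share was 24.8%, and for Gsta4 it was 0. Of the 6 mesothelial markers, 4 rose in the same comparison as Gsta1, Gsta2 and Gsta4, such as Lrrn4 (log2 fold change 1.43) and Upk3b (0.99), and Krt19 (-0.22) and Wt1 (0.36) did not pass. The part of those cells in the result was not tested.

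Gstt3 had the largest fall. It stood at 8.85, 7.46 and 9.09 CPM in scramble and at 3.59, 3.22 and 2.96 CPM in knockdown replicates 1, 2 and 3. The knockdown kept 38.5% of the scramble level, and the gap was several times the spread (log2 fold change -1.38, SE 0.13, edgeR adjusted p = 1.30e-08). The gene lies on chromosome 10 (75774117 to 75781422) next to Gstt1, and 18.1% of its 100-base stretches also occur in the GENCODE gene Gm20441. Of the 5 smooth muscle and pericyte markers with a row, Cspg4 (-0.89) and Rgs5 (-0.49) fell too, while Abcc9 (-0.56), Myh11 (-0.16) and Cnn1 (0.29) did not pass. Of the 8 fibroblast markers 3 fell as well: Tcf21 (-0.84), Pdgfra (-0.30) and Dcn (-0.18). The part of either cell type in the result was not tested.

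Its neighbour Gstt1 had 3.01, 3.52 and 3.41 CPM in scramble and 3.06, 2.20 and 1.76 CPM in knockdown libraries. The groups overlapped through knockdown replicate 1 (log2 fold change -0.50, SE 0.18, edgeR adjusted p = 0.0409). The call was lost without scramble replicate 2 (0.0976) or 3 (0.107), without knockdown replicate 2 (0.118) or 3 (0.205), without the filter (0.0563) and with DESeq2 (0.0548), within a range of 0.00569 to 0.205. Gstt2 stood at 2.46 ± 0.54 and 2.32 ± 0.12 CPM and did not pass (-0.10, SE 0.18).

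**Figure D4:**
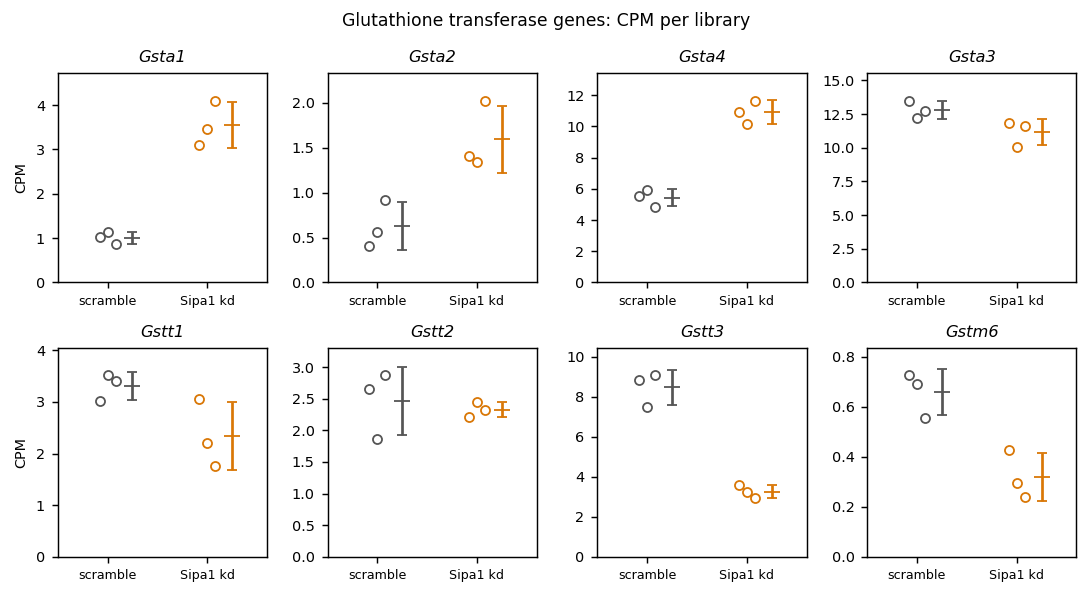
CPM of 8 glutathione transferase genes in each library (open circles; 3 scramble in grey, 3 knockdown in orange), with mean and SD beside them; the axes start at 0. Gsta1, Gsta2 and Gsta4 are higher and Gstt3, Gstm6 and Gsta3 lower in every knockdown library, though Gsta3 did not pass the threshold.

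The mu class, a cluster of 7 genes on chromosome 3, held 2 falling and no rising member, a called share of 28.6% that is below the 32.2% of all genes. Gstm1 went from 64.1 ± 5.01 to 49.2 ± 2.00 CPM (log2 fold change -0.38, SE 0.056, edgeR adjusted p = 1.24e-05), a fall in every knockdown library. Its neighbour Gstm2, more abundant at 87.3 ± 2.34 FPKM in scramble, stayed close to its level (log2 fold change -0.02, 95% interval -0.11 to 0.079). Gstm6 had only 29, 22 and 23 reads in scramble and 16, 12 and 9 in knockdown libraries. Its fall (-1.03, SE 0.35, edgeR adjusted p = 0.0273) was lost without scramble replicate 1 (0.101) or 2 (0.0578), without knockdown replicate 2 (0.0751) or 3 (0.109) and with DESeq2 (0.0704), within a range of 0.00173 to 0.109. On log2(FPKM + 1) it was -0.35. Gstm3, Gstm4, Gstm5 and Gstm7 did not pass, with log2 fold changes between -0.21 and 0.031.

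Of the remaining classes, the pi genes fell and the zeta gene and 1 omega gene rose. Gstp1 went from 116 ± 4.50 to 101 ± 4.53 CPM (log2 fold change -0.21, edgeR adjusted p = 0.00118), and Gstp2 from 19.3 ± 0.66 to 15.3 ± 1.82 CPM (-0.34, edgeR adjusted p = 0.00259). Their split is uncertain, since 38.4% of the 100-base stretches of Gstp1 and 42.2% of those of Gstp2 occur in another gene, and the copy Gstp-ps fell too (-0.35). Gsto1, the most abundant transferase at 360 ± 16.2 FPKM in scramble, did not pass (0.04, 95% interval -0.055 to 0.13). Gsto2, which lies beside it on chromosome 19 and reduces dehydroascorbate, rose from 3.83 ± 0.50 to 5.35 ± 0.39 CPM (0.48, SE 0.14, edgeR adjusted p = 0.00853). Leaving out scramble replicate 3 ended that call (0.0667; range 0.00796 to 0.0667). Gstz1, an isomerase of tyrosine breakdown, rose by 0.28 (SE 0.083, edgeR adjusted p = 0.0126), but not without scramble replicate 1 (0.0845) or knockdown replicate 2 (0.0978), within a range of 0.00763 to 0.0978. Gstk1 of mitochondria and peroxisomes did not pass (-0.18, SE 0.17).

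In the microsomal family, membrane enzymes unrelated to the cytosolic ones, Mgst1 fell from 118 ± 2.22 to 95.7 ± 5.88 CPM (log2 fold change -0.30, SE 0.047, edgeR adjusted p = 2.99e-05). Mgst3 had 4.21, 2.45 and 3.58 CPM in scramble and 2.05, 2.56 and 2.29 CPM in knockdown libraries. Scramble replicate 2 lay inside the knockdown range (-0.58, SE 0.18, edgeR adjusted p = 0.0193). The call was lost without scramble replicate 1 (0.164) or 3 (0.0642) or knockdown replicate 1 (0.0783), and on log2(FPKM + 1) (-0.38, limma adjusted p = 0.0530), within a range of 0.00186 to 0.164. Mgst2, at a low level of 0.60 ± 0.21 and 0.69 ± 0.17 CPM, did not pass and had a wide interval (0.21, 95% interval -0.48 to 0.90).

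The 3 glutathione peroxidase genes of the set that encode enzymes with selenium in the active site all fell. Gpx1, the general cytosolic form, had 208, 189 and 201 CPM in scramble and 168, 155 and 147 CPM in knockdown replicates 1, 2 and 3 (log2 fold change -0.35, SE 0.049, edgeR adjusted p = 7.93e-06). Gpx4, which reduces lipid peroxides in membranes and guards against ferroptosis, went from 272 ± 13.2 to 219 ± 16.8 CPM (-0.31, SE 0.051, edgeR adjusted p = 5.08e-05). Gpx3, the secreted form, went from 326 ± 7.80 to 276 ± 12.7 CPM (-0.24, SE 0.044, edgeR adjusted p = 1.85e-04). In each of these 3 genes all knockdown libraries lay below all scramble libraries, as in 21.2% of all genes tested. With Gpx7, Gpx8 and Cat, the class had 4 falls among 6 genes (66.7%, against 15.8% of all genes). Of the 100-base stretches of Gpx4, 40.8% also occur in the processed copy Gpx4-ps2, whose row fell by a like amount (-0.31).

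Gpx7 and Gpx8, peroxidases of the endoplasmic reticulum that carry cysteine in place of selenocysteine, did not pass: Gpx7 stood at -0.09 (95% interval -0.20 to 0.020) and Gpx8 at 0.09 (4.75e-04 to 0.17, edgeR adjusted p = 0.120). Selenoprotein genes outside this family, among those listed here, went both ways. Txnrd1 rose, Msrb1 fell (-0.34), and Txnrd2 (0.25) and Txnrd3 (-0.14) did not pass. A part of selenium in these differences was not tested. Cat, the peroxisomal catalase, went from 101 ± 4.42 to 92.9 ± 1.79 CPM (-0.12, edgeR adjusted p = 0.0443). This weak call was lost in 8 of 14 alternatives, including without scramble replicate 1 (0.221) or 3 (0.122) and without knockdown replicate 1 (0.109) or 3 (0.0839), within a range of 0.0154 to 0.221.

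Further lists of related genes were read against the 32.2% of all genes that were called. Most genes of each list had a mean of at least 10 CPM, a level at which 43.3% of all genes were called. The shares given for the lists also include their genes below that level. Of 23 other NRF2 targets, 22 had a row, 5 of which rose and 7 fell (54.5% called). Hmox1, the heme oxygenase that both NRF2 and Bach1 control, rose from 288 ± 3.26 to 345 ± 15.4 CPM (log2 fold change 0.26, SE 0.043, edgeR adjusted p = 5.05e-05). The ferritin genes Ftl1 (0.63) and Fth1 (-0.58) moved in opposite directions, and the heme transporter gene Slc48a1 fell (-0.23). Of 21 genes of glutathione breakdown, recycling and transport, 19 had a row, 3 of which rose and 7 fell (52.6% called). Slc25a39, which carries glutathione into mitochondria, rose from 74.1 ± 2.99 to 141 ± 6.00 CPM (0.92, SE 0.047, edgeR adjusted p = 1.19e-12), with its relative Slc25a40 at 0.39. Glo1, which uses glutathione to detoxify methylglyoxal, fell by 0.76, and Ggt7 by 0.55. Of 23 other peroxide, thioredoxin and superoxide genes 5 rose and 5 fell (43.5% called). The mitochondrial pair Txn2 (0.39) and Prdx3 (0.26) rose, while the methionine sulfoxide reductase gene Msrb3 (-0.91) and the mitochondrial superoxide dismutase gene Sod2 (-0.44) fell.

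**Figure D5:**
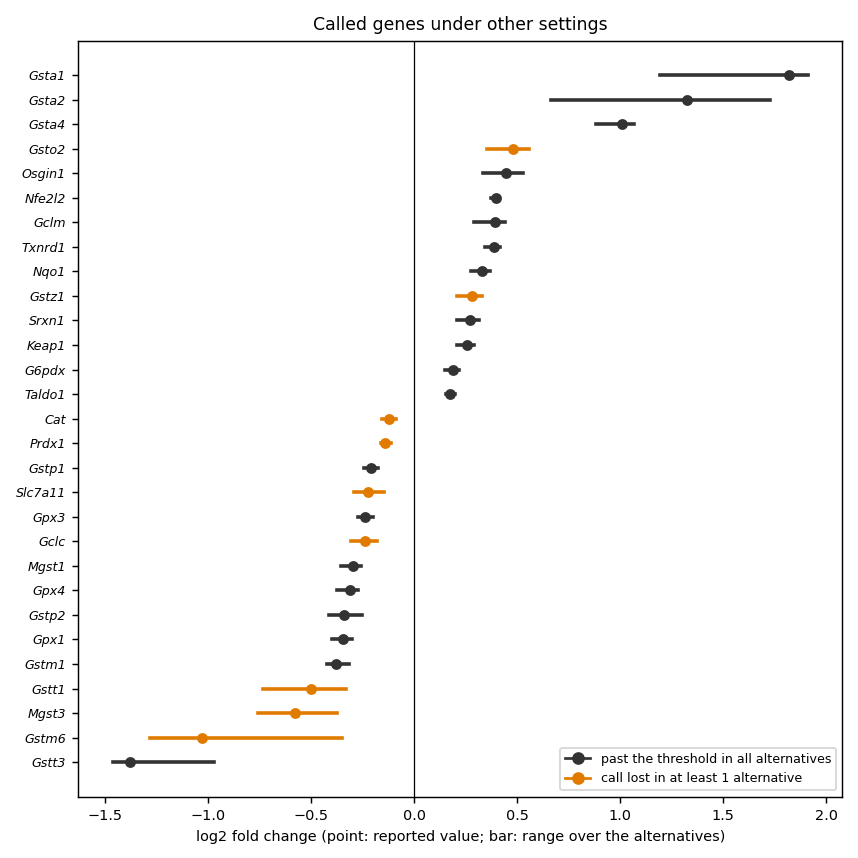
The 29 called genes with the reported log2 fold change (point) and its range over 14 other settings (bar; 13 for Gstm6, which the filter of 1 CPM leaves out); orange marks a call lost in at least 1 setting. No bar crosses 0, and 20 genes kept an adjusted p under 0.05 in all 14.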

How the data were processed

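Per the labels' protocols, stranded poly(A) libraries of 3 scramble and 3 Sipa1 knockdown samples were read in pairs of 100 bases. The submitters' processing notes name HISAT2, StringTie and mm10 but no versions. Use of strand in counting is not stated there. The authors deposited 1 table, in 6 identical copies. Per the file headers and values, its whole-number read counts are not normalized and its FPKM values are scaled by transcript length and depth. The authors' deposited comparison columns hold a signed fold score and p-values, by a test that no header or label names. Every gene listed has at least 1 read in every library.

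The two-sided test was edgeR's robust quasi-likelihood test (version 4.0.16, R 4.3.3) with its default filter and TMM. Benjamini-Hochberg adjustment ran over the 15954 genes left, with a threshold of 0.05. Groups came from the sample titles. An SE is the log2 fold change over the root of the F statistic. Levels are mean ± SD, n = 3. Genes were compared with each other by FPKM. The test was tested on simulated data. Alternatives were RLE or library-size scaling, no filter or at least 1 CPM in 3 libraries, DESeq2 1.42.0, a replicate block, limma 3.58.1 on log2(FPKM + 1) or log2(FPKM + 0.1), and each library left out. Motif and 100-base searches used Python 3.11.15 with RefSeq windows (GRCm38.p6) and GENCODE M21 transcripts, and all 47 genes received coordinates by NCBI gene ID.

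Values in every library are given for the regulators, Nqo1, Txnrd1, Srxn1 and the synthesis genes, and for called members with a log2 size of at least 0.5. List genes named are up to 2 per direction with the smallest adjusted p, plus Hmox1, Ftl1, Fth1, Bach1 and Sqstm1, and others named beside them were chosen after their values were seen. The members and lists were chosen with earlier results of these data known, so none of their patterns is independent support.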

Additional observations from a re-analysis of the deposited data

How the results depend on the processing

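The count of rising members was 13 to 15 and that of falling members 10 to 15 over the 14 alternatives, against 14 and 15. DESeq2 gave 14 and 12, limma on log2(FPKM + 1) gave 14 and 11, and each library left out gave 13 to 14 and 10 to 12, with 10 without scramble replicate 1. All 29 called members kept their direction in the alternatives that tested them (13 for Gstm6, which the filter of 1 CPM leaves out) and 20 kept their call in all 14; the 9 that lost it in at least 1 are Cat, Gclc, Gstm6, Gsto2, Gstt1, Gstz1, Mgst3, Prdx1 and Slc7a11. Of 18 members not called, 17 stayed so where tested, Gss being the exception. With a library left out, the log2 fold change changed sign in 5 members that were not called: it ran from -0.046 to 0.015 for Gstm2, -0.040 to 0.11 for Gstm4, -0.25 to 0.031 for Gstt2, -0.035 to 0.51 for Mgst2 and -0.055 to 0.024 for Tkt. Same-numbered samples did not deviate together (correlations 0.073, 0.0044 and -0.047). No label pairs them, and these correlations cannot settle whether they shared a source. The replicate block gave 15 rising and 14 falling members, and 2710 rising and 2597 falling genes in all against 2613 and 2526. Scaling moved the median of all genes by less than 0.1 on the log2 scale. Depth limits members with few reads, such as Gstm3 with 8 to 13 reads and Mgst2 with 16 to 32 per library.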
